A study of Danio rerio with 4 samples.

Results

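Transcripts of 8 sarcomere-anchoring genes of the zebrafish ventricle are described here: tcap, csrp3, ldb3a, actn2b and nexn, whose proteins belong to the Z-disc, myom1a and myom3, which encode M-band proteins, and alpk2, an alpha kinase gene grouped with them. They were found by their exact names among the 31388 genes of the deposited tables. That matched 7 of the 8, and nexn was not matched because the tables hold it as 2 rows, nexn_1 and nexn_2, whose values are given beside the members. The genes were chosen by levels and folds seen in these same libraries, and tcap, myom3 and alpk2 were noted for their shifts, so all values are descriptions and carry no test.

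RNA of adult heart ventricles was sequenced in 4 libraries, with 1 library per group, from fish aged 6 months to 1 year. The groups were fish homozygous for the dusp6 allele pt30a (dusp6 pt30a/pt30a, called dusp6) at 20 days post amputation (dpa), wild-type AB* fish (WT) at 20 dpa, dusp6 uninjured and WT uninjured. The 20 dpa fish had undergone resection of the ventricle, and dusp6 encodes a phosphatase that turns off the kinase ERK. The sources do not state how many ventricles went into a library, and no difference between groups has a replicate check.

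In striated muscle, thin filaments of neighbouring sarcomeres are anchored at the Z-disc, where alpha-actinin crosslinks actin and telethonin caps the ends of titin. At the other end of titin, in the middle of the sarcomere, myomesins tie myosin filaments together at the M-band. In the zebrafish heart, cardiomyocytes near a resection loosen this lattice when they divide and rebuild it afterwards. RNA levels do not show where a protein sits, and for alpk2 a place in either structure is taken from the grouping only.

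Totals ran between 55197408 counts (WT 20 dpa) and 63222206 counts (WT uninjured), and all 7 matched members passed the minimum of 50 counts in every comparison. Levels in CPM below are counts per 1e6 scaled by TMM, a correction for composition. Folds are ratios of scaled counts with 95% counting intervals, which cover counting error only, and a gene counts as 2-fold different by its log2 fold change on CPM plus a pseudocount of 1. Header names follow one pattern for uninjured libraries and another for 20 dpa libraries, so a preparation difference between them and the injury itself cannot be told apart. Genetic background cannot be told apart from genotype. The mutated gene itself was at 121 CPM in dusp6 20 dpa, 105 in WT 20 dpa, 183 in dusp6 uninjured and 85.3 in WT uninjured, so its transcript was present in the mutant, and the level does not check the labels. In whole ventricles, fewer cells of a type and less RNA per cell cannot be told apart. Of the cardiomyocyte reference genes 22 of 24 were matched and none was at 0 counts in any library. The most abundant, myl7, was between 17807 and 18926 CPM, but it does not stand for the list. After resection in dusp6 12 were above 0 in log2 fold change and 10 below. Of these, 1 was at least 2-fold lower (4.55%, beside 4.25% lower and 8.23% either of all genes), gata4 at 8.79 against 19.9 CPM. In WT 14 were above 0 and 8 below. At least 2-fold higher was 1 (4.55%, beside 3.58% higher and 5.84% either), tpma, at a low level of 2.19 against 0.404 CPM.

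The Z-disc members are taken first. tcap encodes telethonin, the titin cap. It was at 333 CPM in dusp6 20 dpa and 225 CPM in WT 20 dpa, against 68.7 CPM in dusp6 uninjured and 95.04 CPM in WT uninjured. Both 20 dpa libraries were thus above both uninjured libraries, and the order of the genotypes differed between the states. Against its own uninjured library tcap was 4.85-fold higher in dusp6 (interval 4.69 to 5.02) and 2.37-fold higher in WT (2.30 to 2.45). In dusp6 relative to WT it was 1.48-fold higher at 20 dpa (1.44 to 1.51) and 1.38-fold lower without injury (1.33 to 1.44).

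actn2b encodes the sarcomeric alpha-actinin that was most abundant per length in these libraries. It stood at 2392 CPM in dusp6 20 dpa and 4925 CPM in WT 20 dpa, against 3131 CPM in dusp6 uninjured and 5509.7 CPM in WT uninjured. Both dusp6 libraries were below both WT libraries. In dusp6 relative to WT the transcript was 2.06-fold lower at 20 dpa (2.04 to 2.07) and 1.76-fold lower without injury (1.75 to 1.77). Relative to the own uninjured library it was 1.31-fold lower in dusp6 and 1.12-fold lower in WT.

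csrp3, which encodes muscle LIM protein, was at 836 CPM in dusp6 20 dpa and 1008 CPM in WT 20 dpa, against 604 CPM in dusp6 uninjured and 757 CPM in WT uninjured. ldb3a encodes a PDZ and LIM domain protein that binds alpha-actinin (Cypher or ZASP in mammals). Its libraries read 749 CPM in dusp6 20 dpa and 810 CPM (809.8) in WT 20 dpa, against 564 CPM in dusp6 uninjured and 629.5 CPM in WT uninjured. For both genes each 20 dpa library was above both uninjured libraries, by a smaller margin than for tcap. Resection folds for csrp3 were 1.38 in dusp6 and 1.33 in WT, and for ldb3a 1.33 in dusp6 and 1.29 in WT. These 2 genes differed between the genotypes' injury folds by 0.05 each on the log2 scale, against 1.02 for tcap, and this difference cannot be tested with 1 library per group.

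Nexilin is an actin-binding protein of the Z-disc. Of its rows, nexn_2 (ENSDARG00000057317, which the gene name table gives as NEXN) was at 516 CPM in dusp6 20 dpa and 444 CPM in WT 20 dpa, against 628 CPM in dusp6 uninjured and 656 CPM in WT uninjured. Here the 20 dpa libraries were below the uninjured ones, 1.22-fold in dusp6 and 1.48-fold in WT. The row nexn_1 held 38 counts in dusp6 20 dpa, 12 in WT 20 dpa, 21 in dusp6 uninjured and 5 in WT uninjured, under the minimum, and no fold is read from it.

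**Figure D1:**
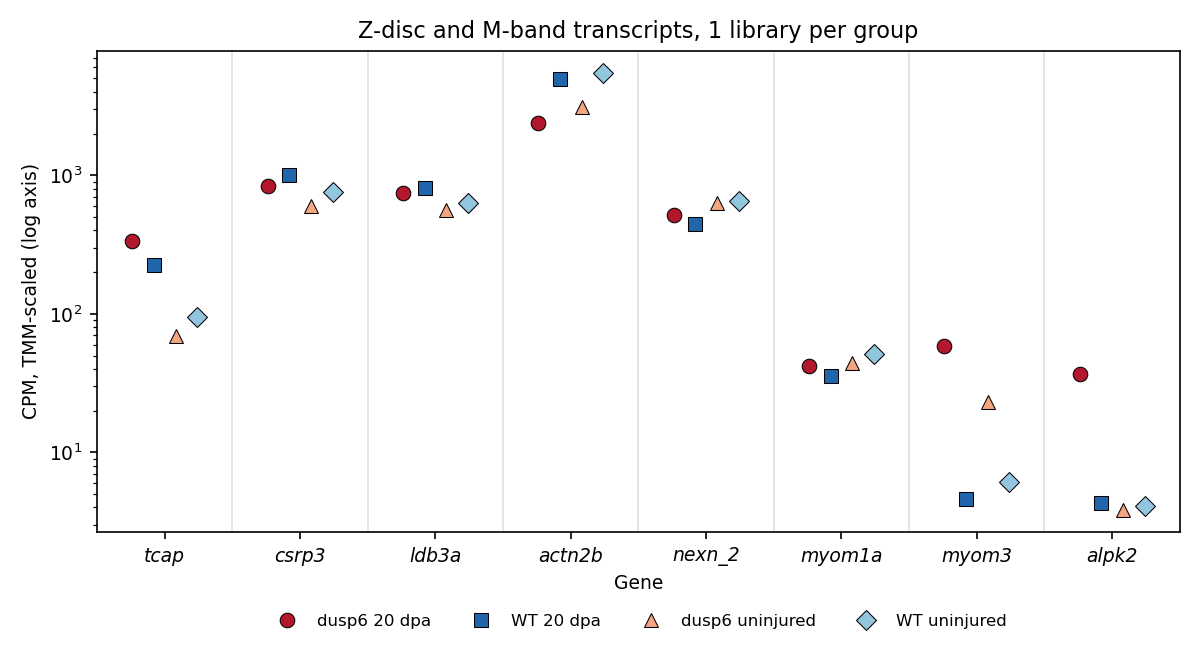
Level of each Z-disc and M-band transcript in the 4 libraries, as TMM-scaled CPM on a log axis, with 1 point per library and no error bar because each group has 1 library. tcap is higher in both 20 dpa libraries (333 and 225 CPM) than in the uninjured ones, myom3 is higher in both dusp6 libraries, and alpk2 stands apart in dusp6 20 dpa (36.9 CPM).

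Among the M-band members, myom3 encodes myomesin 3. It was measured at 58.1 CPM in dusp6 20 dpa and 4.58 CPM in WT 20 dpa, against 23.1 CPM in dusp6 uninjured and 6.13 CPM in WT uninjured. Both dusp6 libraries were above both WT libraries, and resection went with a higher level in dusp6 and a lower one in WT. In dusp6 relative to WT, myom3 was 12.7-fold higher at 20 dpa (11.2 to 14.5) and 3.77-fold higher without injury (3.37 to 4.21). Against the own uninjured library it was 2.52-fold higher in dusp6 (2.37 to 2.69) and 1.34-fold lower in WT (1.14 to 1.57). By log2 fold change it ranked 1 of 14790 genes among those higher in dusp6 at 20 dpa, a rank that belongs to how it was chosen.

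myom1a encodes a myomesin 1, which crosslinks myosin and titin. Its level was 41.7 CPM in dusp6 20 dpa and 35.4 CPM in WT 20 dpa, against 44.0 CPM in dusp6 uninjured and 51.6 CPM in WT uninjured. WT 20 dpa was the lowest of the 4 libraries and WT uninjured the highest, with both dusp6 libraries between them. The transcript was 1.46-fold lower after resection in WT (1.38 to 1.54), while in dusp6 the interval of 0.894 to 1.00 around a fold of 0.947 reached 1.

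alpk2 encodes alpha kinase 2, of a protein kinase family unlike conventional kinases in sequence. It was at 36.9 CPM in dusp6 20 dpa and 4.34 CPM in WT 20 dpa, against 3.83 CPM in dusp6 uninjured and 4.12 CPM in WT uninjured. One library of the 4 was high, with 1926 counts, and the other 3 held between 235 and 275 counts. alpk2 was 9.63-fold higher in dusp6 20 dpa than in dusp6 uninjured (8.41 to 11.1) and 8.501-fold higher than in WT 20 dpa (7.43 to 9.76). In WT the resection fold was 1.05 (0.883 to 1.26), and without injury the genotype fold was 0.9303 (0.778 to 1.11), so neither differed from 1 beyond counting error. As this value rests on 1 library, a property of the fish in it and of their genotype after injury cannot be told apart.

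**Figure D2:**
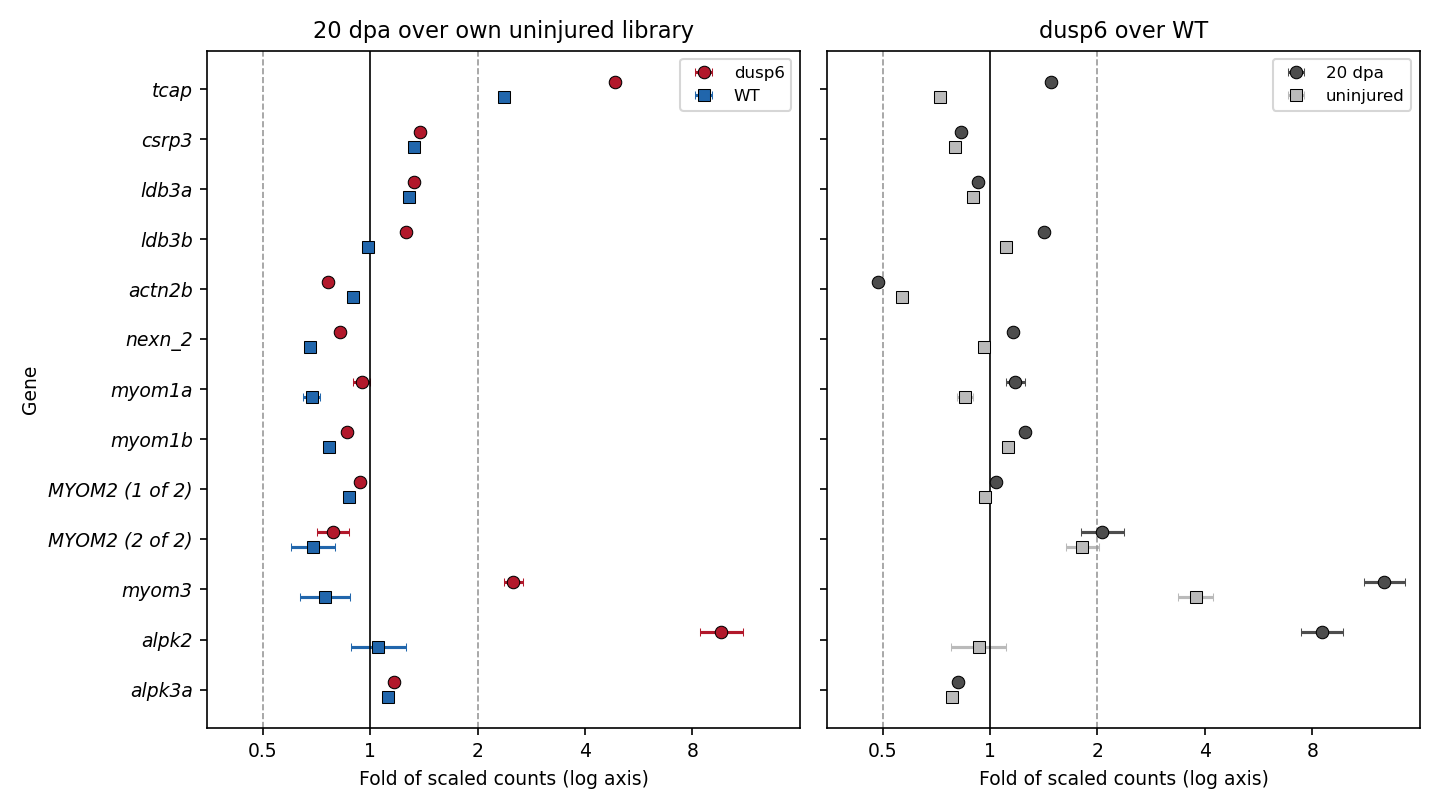
Folds of scaled counts for the members, the nexn_2 row and paralogs, with 95% counting intervals as bars and a log axis. The left panel gives 20 dpa over the own uninjured library in dusp6 and WT, and the right panel gives dusp6 over WT at 20 dpa and uninjured. Dashed lines mark 2-fold, which only tcap passes in both genotypes on the left and only myom3 passes among the members in both states on the right.

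Against the background of all genes the members counted as follows. In dusp6 20 dpa against dusp6 uninjured, 3 of 7 members (tcap, myom3 and alpk2) were at least 2-fold higher and none was lower, where 3.99% of 15052 genes were higher, 4.25% lower and 8.23% either. In WT 20 dpa against WT uninjured 1 of 7 (tcap) was higher and none lower, against 3.58% higher, 2.26% lower and 5.84% either of 15111 genes. In dusp6 20 dpa against WT 20 dpa, 2 members (myom3 and alpk2) were higher and 1 (actn2b) lower, against 1.51%, 1.87% and 3.38% either of 14790 genes. Between the uninjured libraries 1 member (myom3) was higher in dusp6 and none lower, against 1.83%, 1.55% and 3.38% either of 15132 genes. Since these contrasts were used to choose members, nothing is read from the counts. The injury comparisons share no library, while the genotype comparisons reuse the same 4.

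The authors' deposited tables compare each 20 dpa library with both uninjured libraries together. In the authors' deposited table tcap had a fold change of 4.11 for dusp6 and 2.74 for WT, and alpk2 had 9.37 for dusp6 and 1.09 for WT. For myom3 the authors' deposited table gives 4.03 for dusp6 and a fall of 3.19-fold (-3.19) for WT. Against WT uninjured alone the WT library was only 1.34-fold lower, since dusp6 uninjured, with the higher level, is part of that mean. The direction of actn2b in WT also turned with the reference, with a log2 fold change of -0.16 against WT uninjured and 0.19 against the mean of both.

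Levels were then compared per length, with the authors' RPKM, which divides reads by gene length and library total. actn2b led with 671 to 1734 RPKM, followed by csrp3 with 374 to 626 RPKM, and this order held in each library. Next came tcap, nexn_2 and ldb3a, whose order changed between states. tcap was at 235 RPKM in dusp6 20 dpa and 171 RPKM in WT 20 dpa, above nexn_2 (124 and 115 RPKM) and ldb3a (102 and 119 RPKM). In the uninjured libraries it was at 52.0 RPKM in dusp6 and 75.1 RPKM in WT, below nexn_2 (162 and 177 RPKM) and ldb3a (82.2 and 95.8 RPKM). myom1a (5.36 to 8.13 RPKM), myom3 (0.875 to 10.3 RPKM) and alpk2 (0.659 to 5.91 RPKM) were far below the Z-disc members, and myom3 exceeded myom1a in dusp6 20 dpa but in none of the other 3 libraries.

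The low members have abundant paralogs, which places their shifts. Of the summed RPKM of 5 myomesin genes, myom1b made up 68.5% in dusp6 20 dpa, 66.7% in WT 20 dpa, 71.3% in dusp6 uninjured and 69.0% in WT uninjured. myom3 made up 2.69% in dusp6 20 dpa and 0.259% in WT 20 dpa, against 0.956% in dusp6 uninjured and 0.275% in WT uninjured. The main M-band transcripts thus kept most of the sum in each library, and the myom3 difference was a difference in a minor transcript. The minor paralog MYOM2 (2 of 2) was also higher in dusp6 than WT, 2.06-fold at 20 dpa and 1.82-fold without injury. The same folds were 1.26 and 1.12 for myom1b, 1.04 and 0.966 for MYOM2 (1 of 2), and 1.18 and 0.853 for myom1a. The myomesin sum was 383 RPKM in dusp6 20 dpa, 338 in WT 20 dpa, 459.7 in dusp6 uninjured and 442 in WT uninjured, lower in both 20 dpa libraries. RPKM sums here and below are not scaled by TMM, whose factors ran from 0.937 in dusp6 20 dpa to 1.056 in WT uninjured.

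Among 3 alpha kinase genes (alpk1, alpk2 and alpk3a) alpk2 took 26.4% of the RPKM in dusp6 20 dpa and 3.37% in WT 20 dpa, against 3.79% in dusp6 uninjured and 3.47% in WT uninjured. alpk3a, the paralog known from cardiomyopathy in mammals, was at 137 CPM in dusp6 20 dpa and 169 in WT 20 dpa, against 117 in dusp6 uninjured and 150.3 in WT uninjured. Its resection folds were 1.17 in dusp6 and 1.12 in WT, so alpk2 and alpk3a differed in dusp6. alpk1 was lower after resection, 2.26-fold in dusp6 and 1.59-fold in WT. Its share was 4.57% in dusp6 20 dpa and 4.27% in WT 20 dpa, against 14.3% in dusp6 uninjured and 7.34% in WT uninjured. actn2b held between 98.3% (dusp6 20 dpa) and 99.4% (WT uninjured) of the RPKM of 4 alpha-actinin genes, and the family sum followed it, at 683 RPKM in dusp6 20 dpa and 1511 RPKM in WT 20 dpa, against 954 RPKM in dusp6 uninjured and 1744 RPKM in WT uninjured. ldb3a held between 16.8% and 24.7% of the LDB3 pair, the rest being ldb3b. The resection folds of ldb3b were 1.26 in dusp6 and 0.988 in WT. That is a gap of 0.35 on the log2 scale, against 0.05 for ldb3a. The treatment of reads shared by paralogs is not stated, so values within these families are uncertain.

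**Figure D3:**
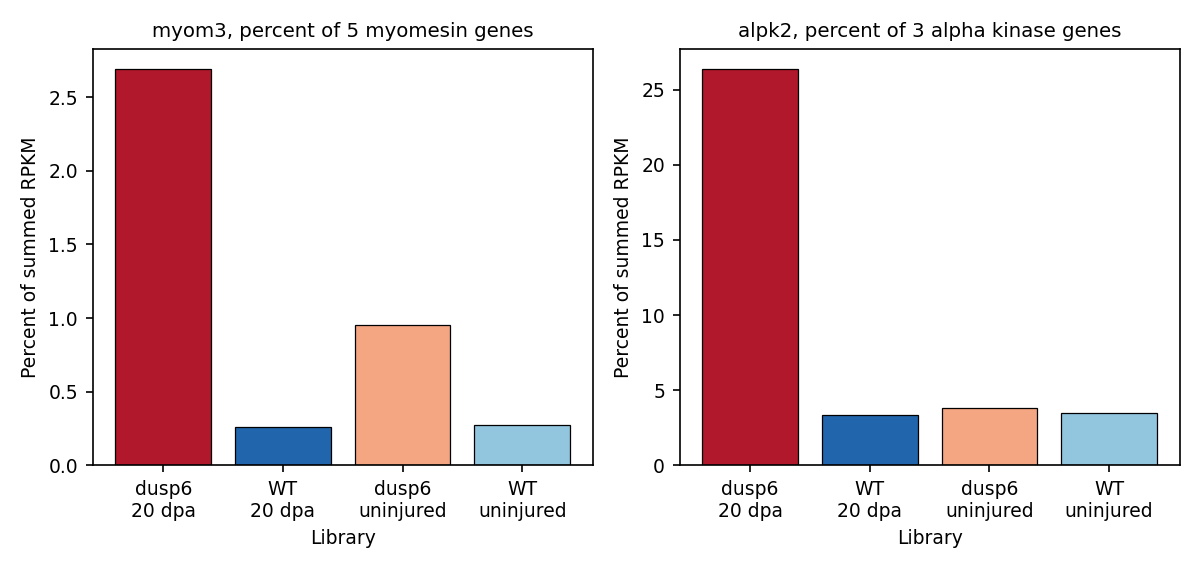
Share of the summed RPKM of a gene family taken by myom3 (5 myomesin genes, left) and alpk2 (3 alpha kinase genes, right), as bars from 0, with 1 library per bar. Both shares are highest in dusp6 20 dpa, at 2.69% and 26.4%, and myom3 is also raised in dusp6 uninjured at 0.956%.

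Other Z-disc genes were examined through a wider list of 59 symbols, of which 46 besides the members were matched. This and the later lists were chosen with earlier results of these data known, so their shares and medians are descriptions. In dusp6 20 dpa against dusp6 uninjured, 3.99% of all genes were at least 2-fold higher and 8.23% differed in either direction. Of the 35 list genes past the minimum 3 were higher and none lower (8.57%). These were myoz2a, which encodes a calsarcin that ties calcineurin to the Z-disc, synpo2la, of the synaptopodin-like family, and fhl2b, a LIM domain gene. myoz2a was at 41.9 CPM in dusp6 20 dpa and 15.2 CPM in WT 20 dpa, against 4.73 CPM in dusp6 uninjured and 7.73 CPM in WT uninjured. Its fold was 8.86 in dusp6 (7.83 to 10.05) and 1.97 in WT (1.77 to 2.21). synpo2la read 37.9 CPM in dusp6 20 dpa and 16.5 in WT 20 dpa, against 11.0 in dusp6 uninjured and 16.6 in WT uninjured, so WT did not differ beyond counting error.

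In WT after resection 2 of 37 were higher (5.41%, beside 3.58% higher and 5.84% either of all genes), csrp1a at 2.44-fold and pdlim1 at 2.16-fold. The median log2 fold change of the list without members was 0.35 in dusp6 and 0.32 in WT, beside -0.01 and -0.02 over all genes. Between genotypes the medians were -0.05 at 20 dpa and -0.10 without injury, beside 0.01 and 0.01 over all genes. The shares past 2-fold after resection were thus near the either-direction share of all genes, but above the share of genes higher. The medians after resection also lay above that of all genes.

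The wider M-band and titin-kinase list had 34 symbols and 23 matched genes besides the members, of which 20 passed the minimum. Its median was 0.00 in dusp6 (-0.0046) and -0.20 in WT after resection. In dusp6 2 of the 20 were at least 2-fold higher, smyd1b and mybphb, and none lower (10%, beside 3.99% higher and 8.23% either of all genes). In WT 1 of 20 was higher, smyd1b, and none lower (5%, beside 3.58% higher and 5.84% either). These shares were near the either-direction share of all genes and above the share of genes higher. Between genotypes at 20 dpa 2 of 20 were higher in dusp6, ckmb and mybphb (10%, beside 1.51% higher and 3.38% either). Without injury 3 of 20 differed (15%, beside 3.38%), ckmb higher in dusp6 and smyd1b and ank1b lower. ank1b rests on low counts, 11 in dusp6 uninjured against 101 in WT uninjured. smyd1b encodes a methyltransferase needed for thick filament assembly in zebrafish muscle. It was at 161 CPM in dusp6 20 dpa and 186 CPM in WT 20 dpa, against 26.0 CPM in dusp6 uninjured and 83.5 CPM in WT uninjured. Both 20 dpa libraries were above the uninjured ones, and the 6.19-fold difference in dusp6, against 2.23-fold in WT, goes with the low dusp6 uninjured library. mybphb, of the myosin binding protein H type and also on the skeletal muscle list below, was at 80.0 CPM in dusp6 20 dpa and 28.0 CPM in WT 20 dpa, against 18.8 CPM in dusp6 uninjured and 21.0 CPM in WT uninjured, 4.25-fold higher after resection in dusp6 (3.98 to 4.54) and 1.33-fold higher in WT (1.24 to 1.44). The muscle creatine kinase gene ckmb followed genotype, 5.51-fold higher in dusp6 at 20 dpa and 10.8-fold higher without injury.

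Chaperones and other assembly factors of the sarcomere formed the third list, with 31 of 36 symbols matched and no members among them. It also holds the actin filament genes lmod1b, lmod2b, lmod3, tmod1 and tmod4, so its counts and medians are not of chaperones alone. As the list was chosen with earlier results of these data known, nothing is read from its shares beside the background. In dusp6, 10 of 27 past the minimum were at least 2-fold higher after resection and none lower (37.0%, beside 8.23% of all genes), with a median log2 fold change of 0.75. In WT, 7 of 26 were higher and none lower (26.9%, beside 5.84%), with a median of 0.41. Between genotypes at 20 dpa 0 of 27 differed 2-fold, beside 3.38% of all genes. Between the uninjured libraries 3 of 26 did (11.5%, beside 3.38%), with hspb6 4.89-fold and cryabb 3.14-fold higher and smyd1b 3.21-fold lower in dusp6. smyd1b is on both this list and the M-band list, and is among the 10 in dusp6 and the 7 in WT. The chaperone gene hsp90aa1.1, whose product folds myosin in zebrafish skeletal muscle, had the highest log2 fold change of the list in both, with folds of 6.97 in dusp6 and 10.1 in WT. Its partner unc45b was at 251 CPM in dusp6 20 dpa and 201 CPM (200.8) in WT 20 dpa, against 99.7 CPM in dusp6 uninjured and 126 CPM in WT uninjured. bag3, a co-chaperone that clears damaged Z-disc proteins, was 2.46-fold higher in dusp6 (2.33 to 2.61) and 1.47-fold higher in WT (1.40 to 1.54). The small heat shock gene hspb11 was 3.27-fold higher in dusp6 and 2.41-fold higher in WT.

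**Figure D4:**
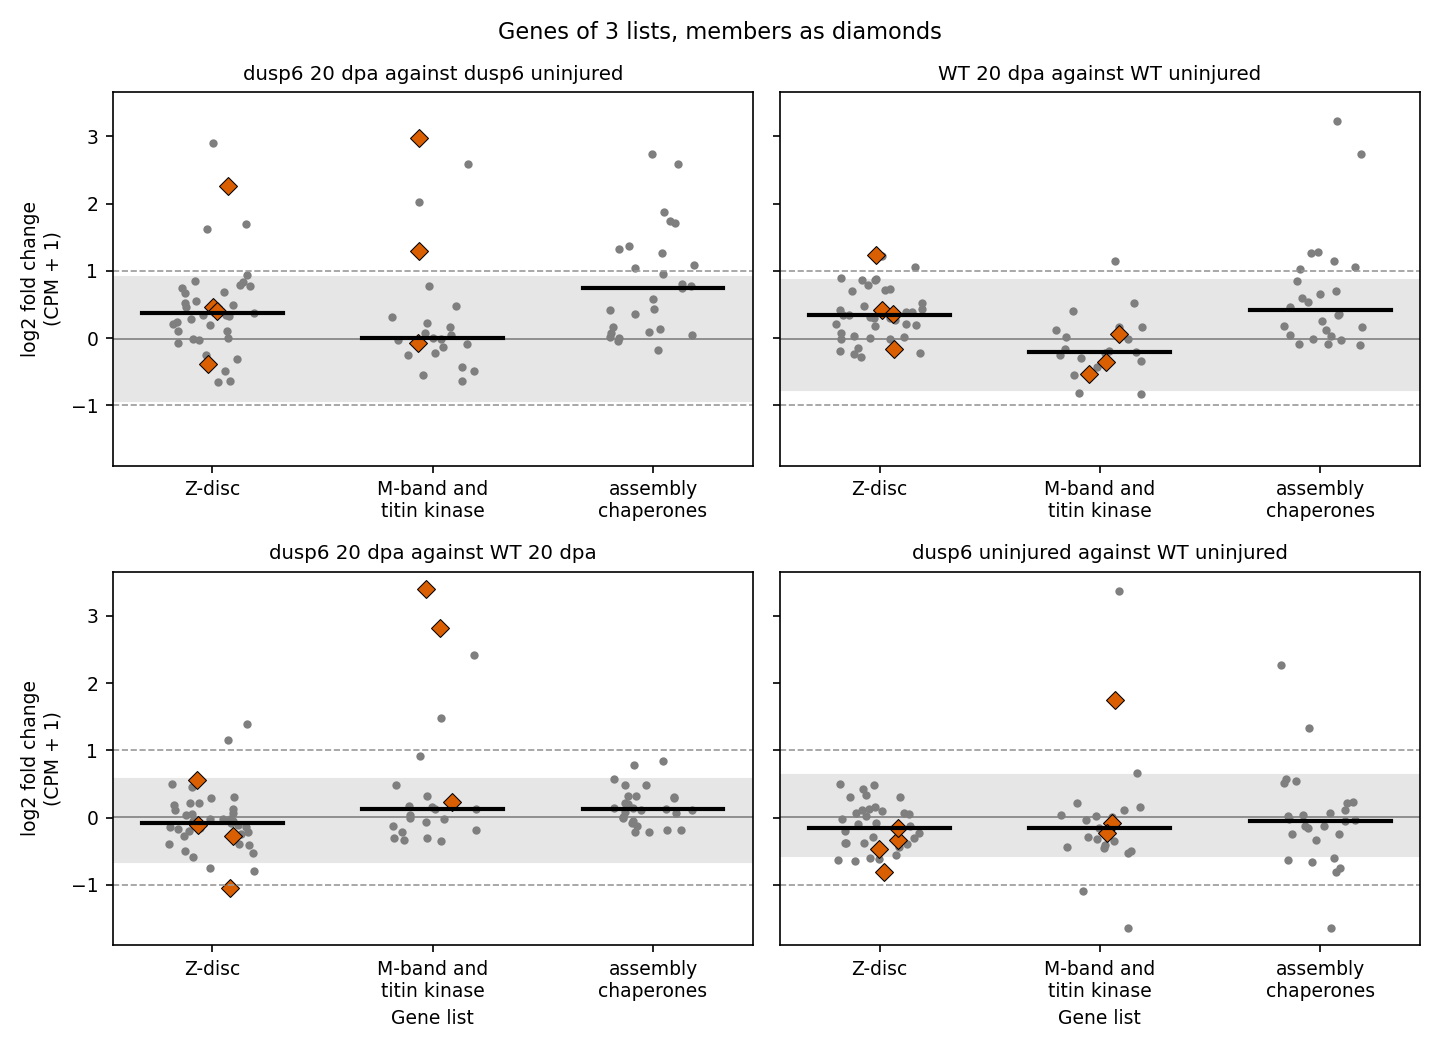
Log2 fold changes on CPM plus 1 of the genes of 3 lists in the 4 comparisons, with members as diamonds and other genes as dots. Black bars are list medians with the members included. The grey band spans the 5th to 95th percentile of all genes and the dashed lines mark 2-fold. The lists were chosen with earlier results of these data known. Genes of the chaperone and assembly factor list mostly lie above the middle of all genes after resection (medians 0.75 in dusp6 and 0.41 in WT). M-band genes without the members have medians of 0.00 (-0.0046) in dusp6 and -0.20 in WT, with single genes far above. Between the uninjured libraries single genes lie far above (ckmb at 3.38) and far below (smyd1b at -1.65).

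Since several members are also made in skeletal muscle and atrium, markers of both were set beside them. Of 46 skeletal muscle markers 45 were matched, with a summed level of 3762 CPM in dusp6 20 dpa and 4004 CPM in WT 20 dpa, against 1743 CPM in dusp6 uninjured and 2359 CPM in WT uninjured. Most of this sum was the actin gene acta1b, and without it (a sum added after the values were seen) the list stood at 525 CPM in dusp6 20 dpa and 425 CPM in WT 20 dpa, against 332 CPM in dusp6 uninjured and 383 CPM in WT uninjured. The order of the 20 dpa libraries thus turned with that gene. Among the 32 that reached 50 counts in any library, 22 were highest in WT 20 dpa and 5 in dusp6 20 dpa, and myhz1.2 was at 0 in all. The fast light chain gene mylpfa was at 5.56 CPM in dusp6 20 dpa and 17.7 in WT 20 dpa, against 0.310 in dusp6 uninjured and 0.434 in WT uninjured. The myogenic factor gene myog had 2 counts in WT 20 dpa and 0 in the other 3 libraries, where 3 counts would be at most 0.0575 CPM. The slow troponin C gene tnnc1b stood at 118 CPM in dusp6 20 dpa and 60.2 CPM in WT 20 dpa, against 18.5 CPM in dusp6 uninjured and 19.5 CPM in WT uninjured. In dusp6 20 dpa against WT 20 dpa, where tcap, myom3 and alpk2 were higher, 9 of the 32 markers were above 0 in log2 fold change and 23 below, and mylpfa and tnnc1b went opposite ways. In that comparison 12 of the 32 were at least 2-fold lower and 1 higher (40.6%, beside 3.38% of all genes either). After resection 22 of 27 were above 0 in dusp6 and 26 of 32 in WT. At least 2-fold higher were 12 in dusp6 (44.4%, beside 3.99% of all genes higher) and 17 in WT (53.1%, beside 3.58%). None of the markers was 2-fold lower after resection, and these shares are descriptions. The part of skeletal muscle RNA in the members' values was not tested.

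Of 11 atrial markers 10 were matched, with a sum of 2923 CPM in dusp6 20 dpa and 1792 CPM in WT 20 dpa, against 1739 CPM in dusp6 uninjured and 1796 CPM in WT uninjured, and kcnj3a was at 0 in all. Most of this sum was nppa, and the rest summed to 361 CPM in dusp6 20 dpa and 253 CPM in WT 20 dpa, against 185 CPM in dusp6 uninjured and 211 CPM in WT uninjured, with WT 20 dpa above both uninjured libraries. The atrial myosin gene myh6 had the same order of libraries as tcap, 250.4 CPM in dusp6 20 dpa and 144 CPM in WT 20 dpa, against 48.3 CPM in dusp6 uninjured and 86.9 CPM in WT uninjured. Of the 7 atrial markers that reached 50 counts in any library, 4 were highest in dusp6 20 dpa and 3 in dusp6 uninjured, so the list did not share one order. After resection 4 of 7 were above 0 in log2 fold change in dusp6 and 3 of 7 in WT. The part of atrial tissue in these values was not tested. The red blood cell markers, of which 7 of 11 were matched and none was at 0, summed to 16309 CPM in dusp6 20 dpa and 15594 CPM in WT 20 dpa, against 9373 CPM in dusp6 uninjured and 12643 CPM in WT uninjured. Without the most abundant gene ba1 they summed to 8575 CPM in dusp6 20 dpa and 8706 CPM in WT 20 dpa. The uninjured sums were then 4574 CPM in dusp6 and 6129 CPM in WT, so the order of the 20 dpa libraries turned with ba1. Epicardial and fibroblast markers summed to 929 CPM in dusp6 20 dpa and 1391 CPM in WT 20 dpa, against 746 CPM in dusp6 uninjured and 599 CPM in WT uninjured. Macrophage markers summed to 298 CPM in dusp6 20 dpa and 468 CPM in WT 20 dpa, against 375 CPM in dusp6 uninjured and 324 CPM in WT uninjured. In dusp6 20 dpa against WT 20 dpa, where myom3 and alpk2 were higher, 14 of 14 macrophage markers were below 0 in log2 fold change. Of these, 6 were at least 2-fold lower (42.9%, beside 1.87% of all genes), and the median was -0.84, beside 0.01 over all genes. Also below 0 were 8 of 8 outflow tract and smooth muscle markers (median -0.43) and 9 of 13 epicardial and fibroblast markers (median -0.31). Of 11 endothelial markers 7 were above 0. The marker lists were chosen with earlier results of these data known, so these shares are descriptions. The part of cell composition in the members' values was not tested. The other lists ranged over the 4 libraries from 310.0 to 406 CPM for outflow tract and smooth muscle and 933 to 1072 CPM for endothelium. The most abundant outflow and smooth muscle gene was smtnb, and the narrow range of that sum hides shifts of single genes. After resection 3 of 8 passed 2-fold in each genotype, 1 higher and 2 lower (37.5%, beside 8.23% of all genes in dusp6 and 5.84% in WT).

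**Figure D5:**
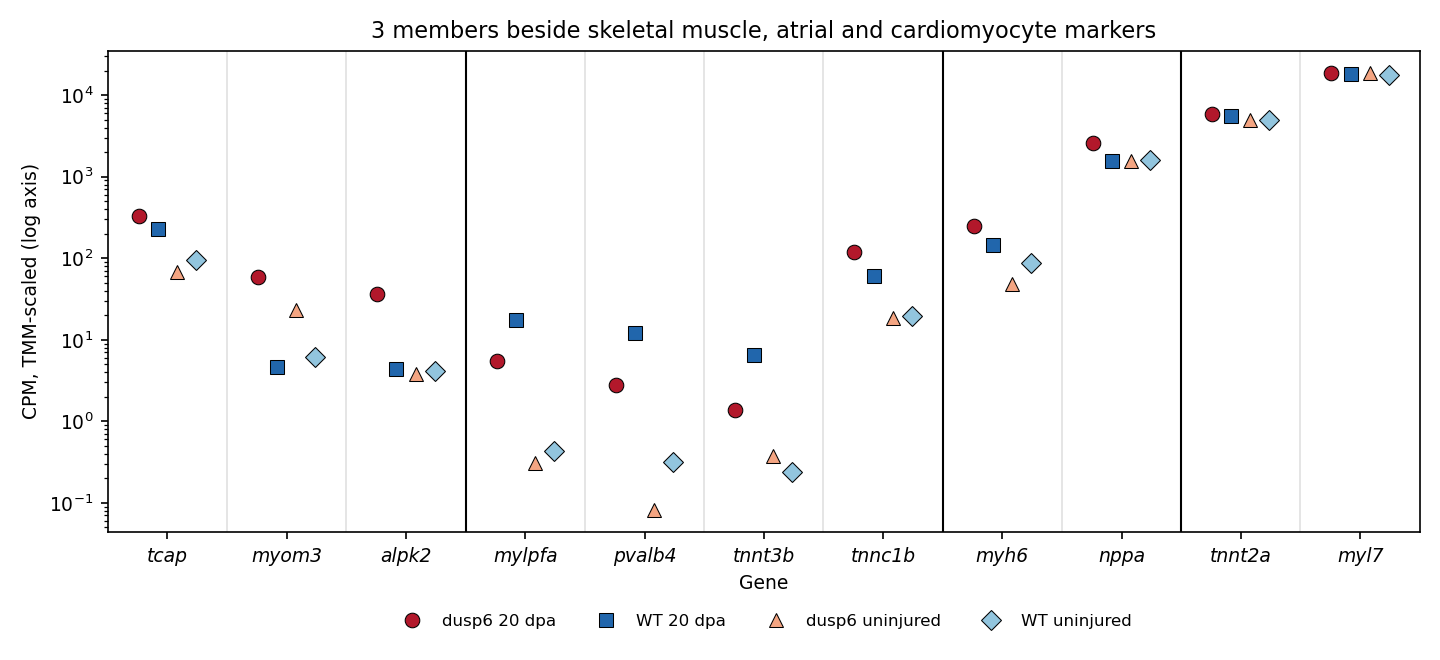
Levels of tcap, myom3 and alpk2 beside skeletal muscle markers (mylpfa, pvalb4, tnnt3b, tnnc1b), atrial markers (myh6, nppa) and cardiomyocyte genes (tnnt2a, myl7), as TMM-scaled CPM on a log axis with 1 point per library. These markers were picked after their values were seen. The fast skeletal genes are highest in WT 20 dpa (mylpfa 17.7 CPM). tcap, myom3, alpk2, tnnc1b, myh6, nppa and tnnt2a are highest in dusp6 20 dpa, and myl7 is highest in dusp6 uninjured.

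Last, the genes whose pattern over the 4 libraries was nearest to that of tcap, myom3 and alpk2 were sought among 9149 genes. These had at least 250 counts in their highest library and a symbol of only lower-case letters, digits and points. Rows with other symbols were not searched. Likeness was the Euclidean distance between centred log2 values of CPM plus 1, and with 4 libraries it is a description. For tcap the nearest were tdh (distance 0.23), the flow-responsive transcription factor gene klf2a (0.30) and the heat-inducible chaperone gene hsp70l (0.31). tdh was at 209 CPM in dusp6 20 dpa and 170.2 CPM in WT 20 dpa, against 42.2 CPM in dusp6 uninjured and 63.4 CPM in WT uninjured. For alpk2 they were sypb (0.28), tdrd12 (0.33) and atcaya (0.61), at 5.27, 6.30 and 7.01 CPM in dusp6 20 dpa and below 1 CPM in the other 3 libraries. Adding 1 CPM shrinks the folds of low genes, so these distances do not mean equal folds. In WT 20 dpa sypb was at 0.0904 CPM and tdrd12 at 0.307 CPM, where alpk2 was at 4.34 CPM. For myom3 no gene of this set came nearer than scube3 at 1.05, followed by efcab11 at 1.17 and fstl1a at 1.31. scube3 was at 7.72 CPM in dusp6 20 dpa and 0.181 CPM in WT 20 dpa. The minimum applied to the highest library only, and sypb, tdrd12, atcaya, scube3 and fstl1a passed it only through dusp6 20 dpa. The filter thus admits genes high in that library alone, so nothing is read from their likeness.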

How the data were processed

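RNA came from flash-frozen ventricles by Trizol and an RNeasy column, per the labels' protocols. Aligner, build, annotation and counting settings: not given in the sources used here. The authors deposited 2 tables of 31388 genes. Per the file headers they hold expression values per gene. These deposited values are whole and differ in total, and they were taken as raw counts. The deposited normalized values are CPM and were not used further. They also hold the authors' RPKM, used here for comparing genes per length, and the authors' group means, a signal not used. The deposited signed fold change of an EDGE test (a score in which falls are negative) was printed for members, and its deposited p-value and FDR were not used because the members were chosen with these results known. Both tables carry the same uninjured values, read once, and 0 columns of per-sample values were left unused as unmatched. The gene name table holds 25925 of the gene IDs, and no sequences are shown.

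TMM scaling used edgeR 4.0.16 (R 4.3.3). Log2 fold changes used a pseudocount of 1 CPM, which understates the change of low genes. Genes needed 50 counts in at least 1 library compared. Each 20 dpa library was set against its own genotype's uninjured library, and dusp6 against WT in each state, with no test because each group has 1 library. Exact conditional counting intervals cover counting error only, as PCR copies cannot be told from separate molecules. A count of 3 equals 0.0449 to 0.0575 CPM. Folds and intervals were run on simulated counts that varied by counting error only, which is what the intervals assume. The simulation held no variation between fish or libraries, so it does not bear on such differences.

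Members, lists and markers were chosen with earlier results of these data known. Named genes were the members, their paralogs (alpk1 and actn1 were added after their values were seen), up to 3 genes per list and direction with the largest differences (a subset is printed), the markers and the 3 nearest patterns. unc45b, bag3, ttna and ttnb were named after their values were seen. Symbols not matched were left out. Alternatives were other scalings (DESeq2 1.42.0 size factors among them), pseudocounts, minimum counts, fold thresholds and references. Other steps ran in Python 3.11.15 with scipy 1.17.1, pandas 2.3.3, matplotlib 3.10.9 and numpy 2.4.6.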

Additional observations from a re-analysis of the deposited data

Results flagged for a closer look

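The injury difference of myom3 had opposite directions in the genotypes, higher in dusp6 and lower in WT, with a gap of 1.65 on the log2 scale (dusp6 minus WT). tcap had opposite genotype differences, with dusp6 above WT at 20 dpa and below WT without injury, a gap of 1.02 (20 dpa minus uninjured). The same held for myom1a with a gap of 0.46. All 3 were picked out because the counting intervals lay on opposite sides of no difference, and none of the gaps could be tested with 1 library per group.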

How the results depend on the processing

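Among 154 log2 fold changes of members under other scalings, pseudocounts or references, 152 kept their sign. The exceptions were alpk2 in WT after resection with total-count scaling (-0.00046) and actn2b in WT against the mean of both uninjured libraries (0.19). The counts of members past 2-fold held within 1.5 times except in 3 cases. In WT after resection a threshold of 3-fold gave 0, and the mean of both uninjured libraries gave 2, tcap higher and myom3 lower. Between the uninjured libraries a threshold of 1.5-fold gave 2. For the 3 lists together, a 1.5-fold threshold gave 33 genes in dusp6 and 24 in WT after resection, 13 between genotypes at 20 dpa and 17 uninjured, where 2-fold gave 17, 10, 7 and 6. A 3-fold threshold gave 11, 2 and 3 in the first 3 of these, and a pseudocount of 10 CPM gave 5 in WT after resection. A higher threshold or pseudocount passes fewer genes by construction. Scaling to 21 cardiomyocyte reference genes left each count of members past 2-fold as it was. No paired analysis was possible because each group has 1 library. The sample titles number no replicates, and numbers in the column headers were not read as replicates. Depth limits nexn_1, at 5 to 38 counts, and 1 library per group limits every difference.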

Other observations

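Titin and the ubiquitin ligases that bind it near the M-band were also read. The titin gene ttna was at 6310 CPM (6309.6) in dusp6 20 dpa and 5743 CPM in WT 20 dpa, against 4552 CPM in dusp6 uninjured and 5697 CPM in WT uninjured, while ttnb was at 543 CPM in dusp6 20 dpa and 570.1 CPM in WT 20 dpa, against 514 CPM in dusp6 uninjured and 725 CPM in WT uninjured. The ligase gene trim55a (MuRF2 in mammals) was lower after resection in both genotypes, at 30.5 CPM in dusp6 20 dpa and 31.0 CPM in WT 20 dpa, against 45.2 CPM in dusp6 uninjured and 55.5 CPM in WT uninjured. The autophagy receptor gene sqstm1 was 1.57-fold lower in dusp6 and 1.47-fold lower in WT. trim63a (MuRF1 in mammals), named after its values were seen, was between 315 and 328 CPM in all 4 libraries.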
